A study of Mus musculus with 6 samples.

Results

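The genes described here were 10 genes of the integrated stress response (ISR), taken by symbol from a table of 52636 genes: the transcription factors Atf4, Atf3, Atf5, Cebpb and Ddit3, and the regulators and effectors Trib3, Ppp1r15a, Chac1, Sesn2 and Asns. All 10 passed a low-count filter of at least 10 counts in at least 3 libraries, which 16418 genes passed. They were selected on their normalized counts in these 6 libraries, above all their levels in the second IDPN library, and Atf3 was singled out by the study partly on the same animals. Their differences between groups and their standing in that library are therefore given as descriptions. The adjusted p values and the shares of all genes beside them are not independent evidence.

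RNA-seq was carried out on vestibular sensory epithelium of male 129S1/SvImJ mice, which were 2 to 4 months old when exposure began. The 3 IDPN animals drank water with 30 mM 3,3'-iminodipropionitrile (IDPN), a nitrile toxic to the sensory hair cells of the inner ear, for 8 weeks, and the 3 Control animals drank water without it. Each library came from 1 animal, with its utricles and cristae pooled, and was made by SMART-seq2, an oligo-dT method without molecular identifiers or strand information. The question was how gene expression in this tissue differs under a long ototoxic exposure, which the study chose so that loss of vestibular function was still reversible. In other mice given this exposure, the study reported extruding hair cells at its end and fewer hair bundles weeks later.

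The ISR is a shared route by which cells answer amino acid shortage, viral RNA, haem shortage or misfolded protein in the endoplasmic reticulum. Its kinases phosphorylate the translation factor eIF2, which lowers most protein synthesis while the ATF4 protein is made more efficiently, and ATF4 then activates genes of amino acid supply, of further transcription factors and of feedback. ATF4 is thus set largely at translation, which RNA counts do not show. ATF3 is also induced by routes outside the ISR, together with immediate early genes.

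Total estimated counts ran from 40474847 to 43566332 per library. The IDPN 2 library stood apart from the other 5 in immediate early genes, the genes that cells switch on within minutes of a stimulus. It had been singled out beforehand for those genes, so their values describe the library and are not an independent finding. The summed level of 28 such genes was 301 to 356 CPM (counts scaled by the total of each library) in Control, 382 in IDPN 1, 547 in IDPN 3 and 11308 in IDPN 2. The Control 3 library stood apart in heat shock genes, whose 12 members summed to 16209 CPM against 5044 to 9663 in the other 5 libraries. All 10 hair cell markers were detected, and DESeq2 called 6 of them lower in IDPN, against 3.42% of all genes. There were 5 lower calls by edgeR, 5 by DESeq2 without IDPN 2, and 3 by DESeq2 with size factors set by total counts. Those settings called 2.19%, 3.27% and 1.28% of all genes lower. The sum of the 10 hair cell markers was 415 to 635 CPM in Control and 339 to 427 in IDPN. The sums of supporting cell markers (6285 to 7461 against 5114 to 5198) and neuron markers (99.9 to 133 against 78.0 to 90.6) were lower in IDPN without overlap. A sum weighs its most abundant genes most. Of the 9 supporting cell markers, 7 had a negative log2 fold change, and DESeq2 called 1 lower and edgeR 0. Their median was -0.18, and 0.05 with total-count size factors. Of the 5 neuron markers that passed the low-count filter, DESeq2 called 3 lower, edgeR 2, and DESeq2 with total-count size factors 0. Stroma markers were higher without overlap (530 to 762 against 872 to 1124), as were T cell markers, at 1.88 CPM or less. Some of these separations depended on the scaling. With DESeq2-normalized counts in place of CPM, the stroma sums overlapped (20441 to 39051 in Control against 35993 to 38675 in IDPN). The hair cell sums then did not (21261 to 24542 against 14199 to 14844). Supporting cell, neuron and T cell sums kept their direction without overlap. Schwann cell and endothelium sums overlapped on both scales. Of 5 erythroid markers, 4 were called higher in IDPN by DESeq2 (2.32% of all genes), 0 by edgeR and 0 without IDPN 2. Their sum was 335 to 749 CPM in Control and 918 to 1172 in IDPN. On DESeq2-normalized counts it overlapped (16166 to 36635 against 34689 to 49091). All 6 melanocyte markers had a positive log2 fold change, with 0 called by DESeq2 or edgeR on all libraries (1 by DESeq2 without IDPN 2), 3 of 6 under an unadjusted p of 0.05 by each, and sums of 165 to 293 CPM in Control and 334 to 586 in IDPN. The mitochondrially encoded share of counts was 10.1% to 13% in Control and 8.15% to 9.92% in IDPN. The part of these shifts in the values of the 10 genes was not tested. In bulk tissue, fewer cells of a type and less RNA per cell cannot be told apart. Because all Control animals carry 1 code stem in the titles and no IDPN animal does, anything that goes with that code is confounded with IDPN and cannot be told apart from it.

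The sequences before the gene starts are shown for the members that carry a recognition motif of the factors in question, because they show which of the 10 genes hold one close to their start. Windows of 250 bases before to 50 bases after each start were available from RefSeq (GRCm38.p6) for all 10 genes, in 11 windows, since Atf5 has more than 1. On either strand, with N standing for any base, TGATGNAA, the core bound by ATF4 with a C/EBP partner, occurred in 4 of the 11 windows and in 3.97% of all 32851 windows. TGACGTCA, the cyclic AMP response element, occurred in 1 of the 11 and in 1.79% of all. TGANTCA, the AP-1 site bound by Fos and Jun proteins, occurred in 1 of the 11 and in 7.81% of all. None of these matches overlapped another. Matches are in capitals, reading 5′ to 3′ on the strand of the gene, and stretches that lie in annotated exons are cut to 28 bases. TTGCATCA and TTACATCA are TGATGNAA read on the opposite strand.
Atf3: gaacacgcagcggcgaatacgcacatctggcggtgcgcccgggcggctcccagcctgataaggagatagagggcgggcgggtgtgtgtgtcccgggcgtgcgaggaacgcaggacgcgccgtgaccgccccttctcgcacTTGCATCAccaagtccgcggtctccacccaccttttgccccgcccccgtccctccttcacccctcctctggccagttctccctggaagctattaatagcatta
Chac1: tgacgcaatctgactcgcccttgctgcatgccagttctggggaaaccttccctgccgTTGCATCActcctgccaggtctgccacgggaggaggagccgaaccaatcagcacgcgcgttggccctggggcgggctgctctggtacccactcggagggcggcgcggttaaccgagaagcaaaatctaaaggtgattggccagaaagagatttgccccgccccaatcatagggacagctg
Asns: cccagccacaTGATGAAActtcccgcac
Trib3: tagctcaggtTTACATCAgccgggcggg
Ppp1r15a: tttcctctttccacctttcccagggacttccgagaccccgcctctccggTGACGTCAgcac
Ddit3: cgcgcgcaTGACTCActcacctcctccg

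The Atf3 stretch is chr1:191183341-191183583 on the minus strand, with its match 110 to 103 bases before the RefSeq start. It lies inside the Atf3 gene of GENCODE (chr1:191170296-191218039), whose own start was not covered by a window. The Chac1 stretch is chr2:119350992-119351228 on the plus strand, with its match 193 to 186 bases before the start. The Asns match lay 23 to 16 bases before the RefSeq start, inside the first Asns exon of GENCODE (chr6:7693215-7693242, minus strand). In Trib3 the match lay 14 to 21 bases past the RefSeq start but before the GENCODE gene start (chr2:152344029-152344056, minus strand). The Ppp1r15a element lay 12 to 5 bases before the start (chr7:45526269-45526329, minus strand), and the Ddit3 match 242 to 236 bases before it (chr10:127290543-127290570, plus strand). The windows of Atf4, Atf5, Cebpb and Sesn2 held none of the 3 motifs in these letters. These are letter matches and do not show that a factor binds there.

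With all 6 libraries, 0 of the 10 genes were called by DESeq2, where a call needs a Benjamini-Hochberg adjusted p under 0.05 and a fold change above 1.5. Over all genes tested the calls were 5.74%, with 2.32% higher and 3.42% lower in IDPN. With size factors set by total counts, 3.64% were higher and 1.28% lower, and 0 of the 10 genes were called. At an unadjusted p under 0.05 there were 3 of the 10 by DESeq2 (Ddit3, Trib3 and Cebpb) and 3 by the edgeR quasi-likelihood test (Atf3, Trib3 and Cebpb), and edgeR also called 0, against 3.21% of all genes. The share of all genes under an unadjusted p of 0.05 was not taken. Such counts, here and for the lists and markers, therefore cannot show an excess over all genes. DESeq2 gave Atf3 no p value, because its filter on single influential libraries (Cook's distance) removed it. Of the 10, 8 had a positive log2 fold change, as had 51.6% of all genes that passed the low-count filter, and the median was 0.65 against 0.01 over those genes. Without IDPN 2, DESeq2 called 0 of the 10 and 4.62% of all genes. There, 2 of the 10 had an unadjusted p under 0.05, edgeR called 0 (2.02% of all genes) and had 3 under 0.05, and the median log2 fold change was 0.07. IDPN 2 was the highest of the 6 libraries for 7 of the 10 genes, all but Atf5, Trib3 and Asns, against 20.2% of all genes. It was at least 2-fold above every other library for Atf3, Atf4, Cebpb and Ppp1r15a, against 1.23% of all genes. Because the genes were selected above all on that library, these counts and the ranks below were favoured by the selection and describe it only.

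**Figure D1:**
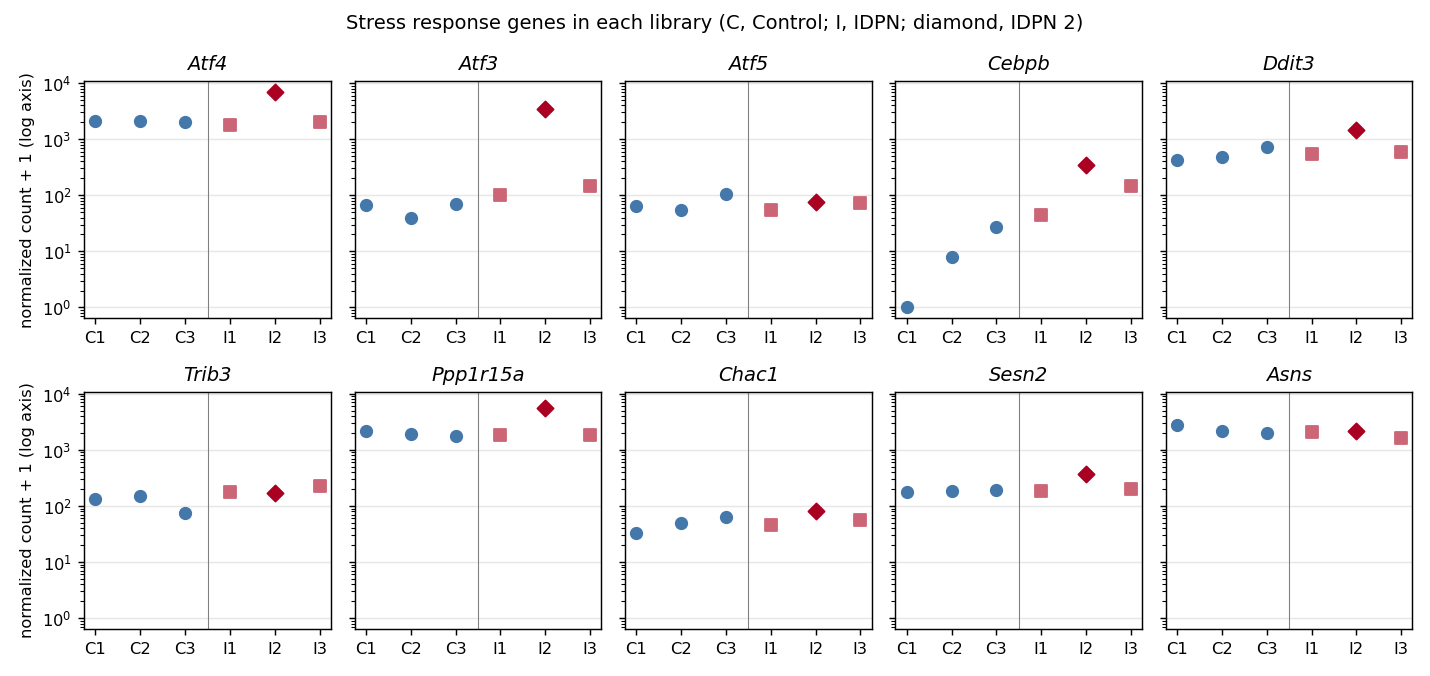
Each panel shows 1 gene, with the DESeq2-normalized count plus 1 on a log axis and 1 point per library (circles, the 3 Control libraries; squares, IDPN 1 and IDPN 3; diamond, IDPN 2). IDPN 2 lay far above the other libraries for Atf3 and also above them for Atf4, Ppp1r15a and Ddit3, while all 3 IDPN libraries lay above all 3 Control libraries for Atf3, Cebpb and Trib3.

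Atf4 (chromosome 15:80255184-80257541, plus strand) encodes the central transcription factor of the ISR. Its normalized counts were 2114, 2146 and 1989 in the Control libraries (1 to 3 in order, here and for the other genes) against 1808, 6986 and 2049 in the IDPN libraries. IDPN 2 was 3.26-fold above the highest other library, and IDPN 1 lay below and IDPN 3 inside the Control range. The log2 fold change was 0.80 (SE 0.63, DESeq2 adjusted p = 0.585) with all libraries and -0.11 (SE 0.17, adjusted p = 0.868) without IDPN 2. The ratio of IDPN 2 to the highest other library ranked 84 among the 16418 genes.

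Atf3 (chromosome 1:191170296-191218039, minus strand) encodes a stress-induced factor that can repress or activate its targets depending on its partner. Its normalized counts were 65.5, 38.1 and 69.4 in Control against 102, 3420 and 143 in IDPN. All 3 IDPN libraries lay above all 3 Control libraries, and IDPN 2 was 24.0-fold above the highest other library, rank 10 of the 16418 genes. IDPN 1 and IDPN 3 together averaged 2.12-fold the Control mean of 57.7 ± 17.1 (SD, n = 3). The fitted log2 fold change was 4.40 (SE 1.41) with all libraries, with an edgeR adjusted p of 0.0892. Without IDPN 2 it was 1.08 (SE 0.42, DESeq2 adjusted p = 0.133), with groups that still did not overlap. The DESeq2 adjusted p was 0.0325 with the Cook's distance filter off, where 5.78% of all genes were called. It was 0.00867 without IDPN 1, 0.0200 without IDPN 3, and 0.0760 to 0.193 when a Control library was left out. Without IDPN 1 or IDPN 3, fewer than 3 IDPN libraries remained, and DESeq2 then does not apply that filter to IDPN 2. Both of those fits kept IDPN 2, at 3420 normalized counts.

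Atf5 (chromosome 7:44812256-44816658, minus strand) encodes a factor that is translated under the same control as ATF4. It had 63.1, 54.2 and 103 normalized counts in Control against 53.0, 73.3 and 71.9 in IDPN. The groups overlapped and IDPN 2 lay inside the Control range. Its log2 fold change of -0.16 (SE 0.38, DESeq2 adjusted p = 0.901) changed sign with total-count scaling (0.03), and was -0.24 without IDPN 2. Its exons share 82 bases with those of Nup62 and Il4i1 on the opposite strand, and without strand information those reads cannot be told apart.

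Cebpb (chromosome 2:167688915-167690418, plus strand) encodes a C/EBP factor that pairs with ATF4 and is also used by macrophages. Its normalized counts were 0, 6.93 and 25.8 in Control against 43.0, 344 and 144 in IDPN. Every IDPN library lay above every Control library, and the Control values themselves were low and scattered. The mean of IDPN 1 and IDPN 3 was 8.56-fold the Control mean. On the log2 scale the fold change was 4.01 (SE 1.52, DESeq2 adjusted p = 0.0996; edgeR adjusted p = 0.0548), and 3.09 (SE 1.84, DESeq2 adjusted p = 0.467) without IDPN 2. Leaving out Control 3, the highest Control library, gave 5.67 with an adjusted p of 0.0104, and the adjusted p ran from 0.0712 to 0.467 when another library was left out.

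The single Cebpb exon shares 312 bases with Tmem189 on the opposite strand, and the counts of Tmem189 were 198 to 275 in Control and 327 to 400 in IDPN (log2 fold change 0.56, DESeq2 adjusted p = 0.122). The 11 macrophage markers were all detected and summed to 51.7 to 66.0 CPM in Control and 75.4 to 93.7 in IDPN. On DESeq2-normalized counts the sums overlapped (2344 to 3231 against 2847 to 4099). Of the 11, 0 were called by DESeq2 or edgeR and 4 were under an unadjusted p of 0.05 by each. None of the 8 neutrophil markers passed the low-count filter, Ly6g and Elane had no count in any library, and the sum was at most 1.27 CPM. The part of these cells in the Cebpb values was not tested.

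Ddit3 (chromosome 10:127290774-127296288, plus strand) encodes CHOP, a factor of prolonged ISR signalling. It had 431, 481 and 725 normalized counts in Control against 550, 1432 and 593 in IDPN. IDPN 2 was 1.97-fold above the highest other library, while IDPN 1 and IDPN 3 lay inside the Control range. The log2 fold change of 0.65 (SE 0.32, DESeq2 adjusted p = 0.274) was 0.06 (SE 0.26, adjusted p = 0.965) without IDPN 2. GENCODE M21 holds a further gene named Ddit3 that shares 105 exon bases on the same strand. The counted genes hold no further entry of that name, and whether reads were split there is not known.

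Trib3 (chromosome 2:152337422-152344032, minus strand) encodes a pseudokinase induced by ATF4 and CHOP that feeds back on them. It had 133, 152 and 74.7 normalized counts in Control against 179, 167 and 226 in IDPN. All 3 IDPN libraries lay above all 3 Control libraries, and IDPN 2 was the lowest of the IDPN libraries. The log2 fold change was 0.67 (SE 0.31, DESeq2 adjusted p = 0.226) with all libraries and 0.76 (SE 0.36, adjusted p = 0.288) without IDPN 2. On leaving out 1 library it ran from 0.41 without Control 3, the lowest Control library, to 0.87 without Control 2. The DESeq2 adjusted p without Control 3 was 0.439. With size factors set by total counts and without IDPN 2 the log2 fold change was 1.13, with a DESeq2 adjusted p of 0.0426 (4.05% of all genes were called there). That scaling moved the median of all genes from 0.01 to 0.35.

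Atf3, Cebpb and Trib3 were the 3 of 10 genes whose groups did not overlap, with IDPN higher, against 11.3% of all genes. Without IDPN 2 they were still those 3, against 16.7% of all genes. No member had all IDPN libraries below all Control libraries, against 11.7% of all genes. In the other 7 genes, the mean of IDPN 1 and IDPN 3 was 0.794 to 1.07 times the Control mean.

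Ppp1r15a (chromosome 7:45522916-45526268, minus strand) encodes GADD34, which brings a phosphatase to eIF2 and so ends the response. Its normalized counts were 2152, 1955 and 1794 in Control against 1807, 5641 and 1864 in IDPN. The 5 libraries other than IDPN 2 lay close together, and IDPN 2 was 2.62-fold above the highest of them. DESeq2 gave a log2 fold change of 0.66 (SE 0.55, adjusted p = 0.621), and -0.10 (SE 0.17, adjusted p = 0.890) without IDPN 2. Atf4 and Ppp1r15a were the members whose sign changed on leaving out IDPN 2.

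Chac1 (chromosome 2:119351229-119354381, plus strand) encodes an enzyme that degrades glutathione. It had 31.5, 49.6 and 61.4 normalized counts in Control against 44.7, 80.3 and 56.0 in IDPN, with overlapping groups (log2 fold change 0.33, SE 0.43, DESeq2 adjusted p = 0.786). Sesn2 (chromosome 4:132492032-132510501, minus strand) encodes a sestrin, a leucine sensor that restrains mTORC1. It had 173, 184 and 189 normalized counts in Control against 185, 371 and 203 in IDPN, where IDPN 2 alone was clearly above the rest (log2 fold change 0.47, SE 0.29, DESeq2 adjusted p = 0.434). Without IDPN 2 the log2 fold changes were 0.08 for Chac1 and 0.09 for Sesn2.

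Asns (chromosome 6:7675169-7693254, minus strand) encodes asparagine synthetase, a standard ATF4 target of the amino acid response. It had 2734, 2207 and 2032 normalized counts in Control against 2066, 2182 and 1624 in IDPN. IDPN 2 lay inside the Control range, in contrast to its Atf4 count, which was the highest of the 6. The log2 fold change was -0.25 (SE 0.18, DESeq2 adjusted p = 0.556), -0.33 without IDPN 2, and 0.02 with total-count scaling.

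**Figure D2:**
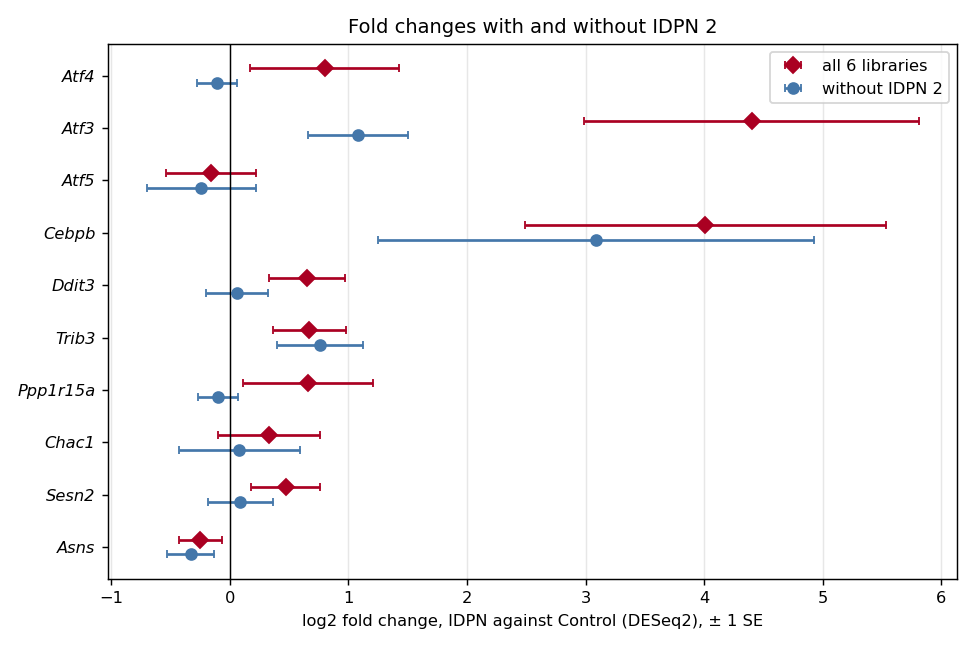
DESeq2 log2 fold changes (horizontal axis, IDPN against Control) with 1 SE for each of the 10 genes, with all 6 libraries (diamonds) and without IDPN 2 (circles). The estimate for Atf3 moved from 4.40 to 1.08, those for Atf4 and Ppp1r15a moved to just below 0, and that for Trib3 went from 0.67 to 0.76.

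Levels between genes were compared as normalized counts per kilobase of exon, over all annotated exons of each gene. In Control the highest were Atf4 (883 ± 35.1, SD, n = 3), Asns (850 ± 134) and Ppp1r15a (670 ± 61.0), of which Atf4 and Asns did not differ beyond their spread. Ddit3 followed at 319 ± 91.9 per kilobase. Trib3 (56.5 ± 19.0) and Sesn2 (52.3 ± 2.22) were alike within their spread, as were Atf5 (36.9 ± 13.1), Chac1 (29.0 ± 9.19) and Atf3 (26.8 ± 7.92), and Cebpb was lowest (7.25 ± 8.88). In IDPN 2 the order was different, with Atf3, ranked 9 in the Control mean, in rank 3 at 1588 per kilobase, below Atf4 at 2963 and Ppp1r15a at 1921. Asns was ranked 5 there, at 798 per kilobase, and Cebpb, the lowest gene in each Control library, was ranked 6 at 229. In IDPN 1 and IDPN 3, Atf3 was ranked 7 (47.3 and 66.3 per kilobase).

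Across libraries, each gene was compared with the mean profile of the other 9 on the log2 scale, as a description over 6 libraries that share depth and scaling. Pearson's r was highest for Sesn2 (0.95), Ddit3 (0.94) and Atf3 (0.91), and lowest for Asns (-0.37), Atf5 (0.21) and Trib3 (0.23). Without IDPN 2, over 5 libraries, r was -0.48 for Atf4, -0.81 for Ppp1r15a and -0.98 for Asns. It was 0.95 for Sesn2, 0.83 for Cebpb, 0.69 for Chac1, 0.67 for Atf3 and 0.66 for Ddit3. The pattern that Atf4 and Ppp1r15a shared with the other members thus rested on IDPN 2. The mean profile weighs Cebpb most, since its counts spanned the widest range.

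The genes most like the mean profile of the 10, among the 11164 other genes that averaged 100 or more normalized counts, were Plrg1 (r = 0.9997), Usp36, Pard6b, Lins1, Car13, Socs5, Il17rc, Notch1, Pdlim7 and Crb3. They followed it in shape and not in size: Plrg1, a spliceosome component, ran from 1977 to 2412 normalized counts, and Notch1, a receptor of cell fate signalling, from 2600 in Control 1 to 6897 in IDPN 2. Without IDPN 2 they were Tbc1d10b, Wwc2, Plrg1, Idnk, Ipmk, Usp7, Ggnbp2, Lins1, Rbm47 and Kdm2b, so that Plrg1 and Lins1 were in both sets.

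Genes around the ISR were followed in lists. Over all genes tested, DESeq2 called 5.74% and edgeR 3.21%, and a list count near those shares is no result about the list. Of 19 genes of ISR signalling found (kinases, eIF2 subunits and phosphatase parts), 1 was called by DESeq2 with all 6 libraries. Eif2ak2, the kinase PKR that senses double-stranded RNA, had 186, 218 and 105 normalized counts in Control against 293, 346 and 372 in IDPN, and rose with a log2 fold change of 1.00 (SE 0.28, adjusted p = 0.0105). IDPN 2 was not its highest library. Without IDPN 2 the log2 fold change was 0.98 with an adjusted p of 0.0626, and the edgeR adjusted p was 0.0734. The list members in which IDPN 2 exceeded the others most were Ppp1r15b (1.43-fold), which is the constitutive partner of the eIF2 phosphatase, Eif2s1 (1.24-fold) and Ppp1ca, the phosphatase's catalytic subunit (1.16-fold, as in Eif2s2).

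Of 21 ATF4 targets of amino acid supply (amino acid transporters and enzymes of amino acid and one-carbon metabolism, without Asns), 0 were called by DESeq2 or edgeR. By DESeq2 3 and by edgeR 4 had an unadjusted p under 0.05, and the median log2 fold change was 0.13. IDPN 2 was highest for 4 of the 21 and 2-fold above all others for 0. The largest excess was 1.19-fold in Slc1a5, a neutral amino acid transporter, followed by Mthfd2 (1.13-fold) and Slc3a2 (1.06-fold). Slc38a2, the amino acid transporter SNAT2, had 7048, 7017 and 5471 normalized counts in Control against 3890, 5915 and 4737 in IDPN. It fell in the fit without IDPN 2 (log2 fold change -0.59, DESeq2 adjusted p = 0.0362), where 0 other genes of the list were called, and did not pass with all libraries (-0.43, adjusted p = 0.200). The call without IDPN 2 was lost with edgeR (adjusted p = 0.165) and with total-count size factors in DESeq2 (log2 fold change -0.24, adjusted p = 0.466).

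Of 20 tRNA synthetases, which ATF4 also controls, 0 were called by DESeq2 or edgeR and 0 had an unadjusted p under 0.05 by either. The median log2 fold change was -0.03, and Aars, at 1.13-fold, had the largest excess in IDPN 2, before Farsa (1.09-fold) and Tars (1.07-fold).

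Of 22 stress effectors that ATF4 or CHOP control, 2 were called higher by DESeq2 with all libraries, against 2.32% of all genes. Both had low counts, and edgeR called 0. Gdf15, a stress hormone, had 10.9, 5.77 and 9.79 normalized counts in Control against 24.8, 40.2 and 33.6 in IDPN (log2 fold change 1.89, SE 0.64, adjusted p = 0.0480). Fgf21, another stress hormone, had no count in any Control library and 4, 36 and 8 counts in IDPN 1 to 3 (DESeq2 adjusted p = 0.00460). Set against a floor of 3 counts over the Control group, Fgf21 was at least 13.7-fold higher in IDPN, and at least 4.94-fold higher without IDPN 2, where DESeq2 gave no adjusted p. Fgf21 did not pass the low-count filter, and edgeR did not test it. Without IDPN 2 neither gene was called, and Gdf15 had an adjusted p of 0.260 by DESeq2. The list was mixed in direction. Of its 18 genes that passed the low-count filter, 10 had a positive and 8 a negative log2 fold change, with a median of 0.10. In 3 all IDPN libraries lay above all Control libraries, and in 3 (Vldlr, Ndrg1 and Ddr2) below, against 11.3% and 11.7% of all genes. Stc2, which did not pass the filter, had 3, 7 and 15 counts in Control and 0 in each IDPN library. DESeq2 gave it no adjusted p.

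Trib1, a paralog of Trib3 counted in this list and among the paralogs, had 289, 409 and 375 normalized counts in Control against 444, 3678 and 468 in IDPN. DESeq2 gave Trib1 no p value, for the same reason as Atf3. It was 7.87-fold higher in IDPN 2 than in any other library, the reverse of Trib3, which was highest in IDPN 3. Ddit4, an mTORC1 inhibitor, was 1.81-fold higher there. Among the 5 paralogs of the members, Chac2, the constitutive relative of Chac1, fell. It had 250, 239 and 231 normalized counts in Control against 93.5, 91.4 and 123 in IDPN (log2 fold change -1.22, SE 0.25, DESeq2 adjusted p = 9.84e-05; edgeR adjusted p = 0.0171). Without IDPN 2 its log2 fold change was -1.15 (DESeq2 adjusted p = 0.00277). Chac1 itself had overlapping groups.

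Of 25 bZIP partners of these factors, 1 was called by DESeq2, against 5.74% of all genes, and edgeR called 0. Mafg, a small Maf protein, rose from 380, 343 and 465 normalized counts in Control to 545, 789 and 622 in IDPN (log2 fold change 0.72, SE 0.22, DESeq2 adjusted p = 0.0197), with 0.56 (adjusted p = 0.168) without IDPN 2. Several AP-1 subunits stood far above the other libraries in IDPN 2. Fos had 144 to 241 normalized counts in the Control libraries, 129 in IDPN 1, 315 in IDPN 3 and 41736 in IDPN 2, which was 133-fold above the highest other library. The excess was 66.6-fold for Fosl1, 63.6-fold for Junb and 5.57-fold for Jun. DESeq2 gave Fos, Fosl1 and Junb no p value, for the same reason as Atf3.

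Of the 27 immediate early genes that passed the low-count filter, IDPN 2 was highest for 25 and at least 2-fold above all others for 19. These counts restate why that library was set apart. Egr1, a zinc finger factor, had 353 to 541 normalized counts in the Control libraries, 250 in IDPN 1, 471 in IDPN 3 and 220092 in IDPN 2, an excess of 407-fold. Dusp5, a phosphatase that acts on ERK, was 113-fold higher there and Arc, a neuronal activity gene, 45.0-fold. These 3 genes overlapped between the groups, and without IDPN 2 the Egr1 log2 fold change was -0.40 (DESeq2 adjusted p = 0.636).

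By DESeq2, 2 of the 28 were called with all libraries, against 5.74% of all genes. Egr1, Ier2, Ier3, Nr4a1, Btg2, Zfp36, Dusp5, Myc, Cyr61, Arc and Csrnp1 had no DESeq2 p value, for the same reason as Atf3. They could therefore not be called. At an unadjusted p under 0.05 there were 8 of the 28 by DESeq2 and 19 by edgeR, which called 1. Klf10, a TGF-beta inducible repressor, had 1058, 796 and 903 normalized counts in Control against 1887, 4204 and 1889 in IDPN. Its log2 fold change was 1.53 (SE 0.27, adjusted p = 2.4e-06; edgeR adjusted p = 0.0215), and 1.04 (SE 0.19, DESeq2 adjusted p = 6.36e-06; edgeR adjusted p = 0.00873) without IDPN 2. Rhob, a small GTPase, rose with a log2 fold change of 1.14 (DESeq2 adjusted p = 0.00582), and was at 0.78 (adjusted p = 0.138) without IDPN 2. Whether the levels of Atf3, Atf4, Ddit3 and Ppp1r15a in IDPN 2 share a source with those of the immediate early genes was not tested.

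**Figure D3:**
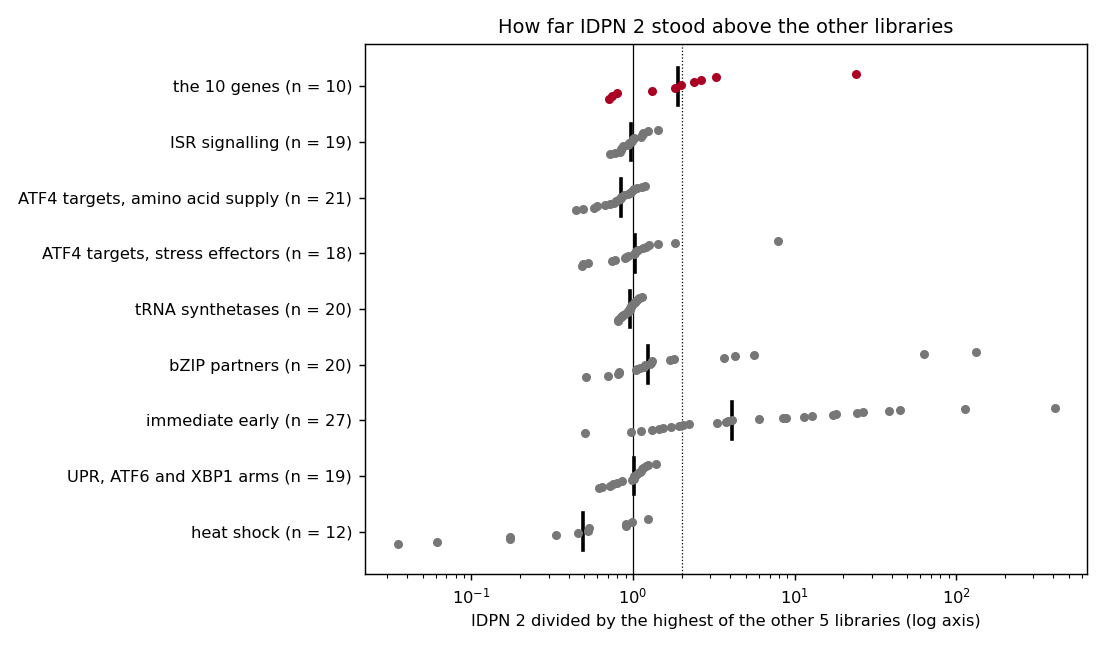
Each point is 1 gene that passed the low-count filter, and the horizontal log axis gives its normalized count in IDPN 2 divided by that in the highest other library (solid line, 1; dotted line, 2; black bars, list medians). The median was 4.10 for the immediate early genes and 1.90 for the 10 genes, and 0.839 and 0.962 for amino acid supply and tRNA synthetases, against 0.797 over all genes.

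In the other arms of the unfolded protein response, run by ATF6 and XBP1, 1 of 19 genes was called by DESeq2. That compares with 5.74% of all genes, and edgeR called 0. Edem1, which takes misfolded glycoproteins to degradation, rose from 177, 212 and 254 normalized counts in Control to 310, 387 and 362 in IDPN (log2 fold change 0.71, SE 0.23, DESeq2 adjusted p = 0.0349), with 0.64 (adjusted p = 0.175) without IDPN 2. Xbp1 was 1.39-fold, Hspa5, the chaperone BiP, 1.23-fold and Hyou1 1.21-fold higher in IDPN 2 than in any other library.

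Of the 12 heat shock genes, 0 were called by DESeq2 or edgeR and 0 had an unadjusted p under 0.05 by either. Dnajb1 was the only one that IDPN 2 led (1.24-fold), and Dnajb4 was at 0.986 of the highest other library. Hspa1a, chosen after its values were seen, had 26026 normalized counts in Control 3 and 680 to 1808 in the other 5 libraries. Control 3 also had the highest Control value for Atf3, Atf5, Cebpb, Ddit3, Chac1 and Sesn2, and the lowest for Trib3, Atf4, Asns and Ppp1r15a. Of 14 genes of NF-kB and cytokine signalling, 0 were called by DESeq2, which had 1 under an unadjusted p of 0.05, and 0 by edgeR, which had 0. Only 6 of the 14 passed the low-count filter. Nfkbia and Nfkbiz were 1.55-fold and 1.46-fold higher in IDPN 2, and Cxcl1 had at most 11 counts in a library.

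**Figure D4:**
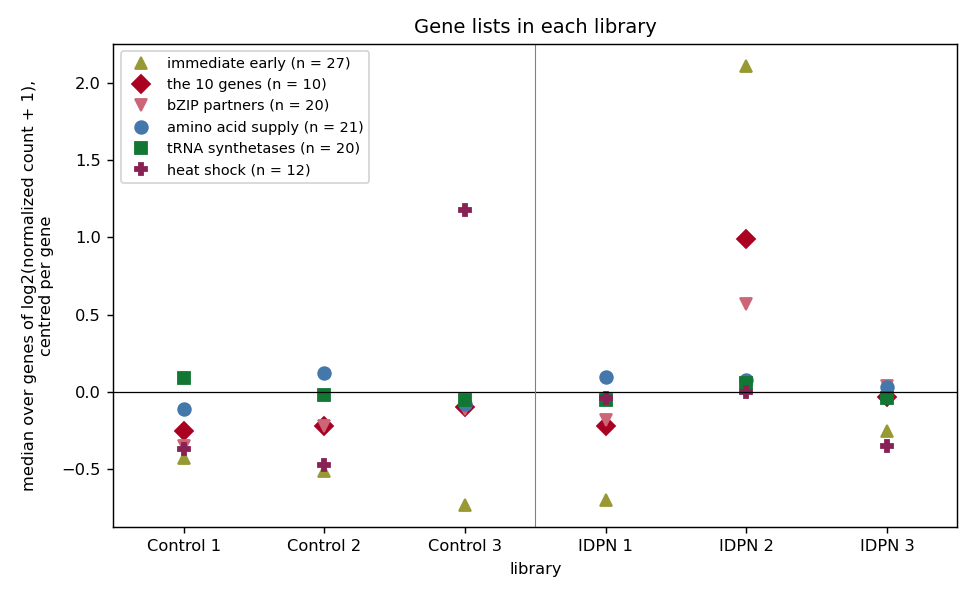
For each library (horizontal axis) the median over the genes of a list of log2(normalized count + 1), after subtracting each gene's mean over the 6 libraries, with n the genes that passed the low-count filter. In IDPN 2 the immediate early genes were at 2.11, the 10 genes at 0.99 and the bZIP partners at 0.57, while amino acid supply and tRNA synthetases lay at 0.08 and 0.06, and heat shock genes were highest in Control 3, at 1.18.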

How the data were processed

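The authors aligned reads with STAR 2.5.3a to GRCm38 and estimated counts per gene with RSEM 2.3.0, per the submitters' processing notes. The deposited values are these estimated (expected) counts, written as whole numbers without normalization or filter. RSEM shares reads among similar genes. Depth was 40474847 to 43566332 counts per library. The protocol has no molecular identifiers.

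The 10 genes, the gene lists and the naming rule were chosen with earlier results of these data known. The 6 libraries were compared as 3 Control against 3 IDPN with the DESeq2 1.42.0 Wald test (R 4.3.3), the tool of the study's methods, with Benjamini-Hochberg adjustment over all genes. A call needed an adjusted p under 0.05 and a fold change above 1.5. The edgeR 4.0.16 quasi-likelihood test was an alternative, beside other size factors, filters and leaving out each library. With 1 animal per library, p values measure the spread between these animals. The code was tested on simulated data.

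From each list, up to 5 called genes and up to 3 genes with the largest excess in IDPN 2 were named. Coordinates and exon lengths came from GENCODE M21 on GRCm38, which matched 52489 of 52636 genes. Promoter windows came from RefSeq GRCm38.p6. Log2 profiles used a pseudocount of 1.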

Additional observations from a re-analysis of the deposited data

How the results depend on the processing

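No paired analysis was possible because the labels give no replicate numbers, and the numbers used here only name libraries. The count of the 10 genes called was 0 in the fit of all libraries, 1 (Atf3) with the Cook's distance filter off, and 0 to 1 on leaving out 1 library (Atf3 without IDPN 1 or IDPN 3, Cebpb without Control 3). In those Atf3 fits the Cook's distance filter did not apply to IDPN 2. Without IDPN 2 the count was 0, and 1 (Trib3) with total-count size factors. Log2 fold changes reversed for Atf5 (0.03) and Asns (0.02) with total-count size factors. On leaving out 1 library they ran from -0.11 to 1.12 for Atf4 and from -0.10 to 0.94 for Ppp1r15a, both lowest without IDPN 2, and from -0.35 to 0.17 for Atf5, highest without Control 3.

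For the lists, edgeR gave 0 calls for ISR signalling, stress effectors, bZIP partners and the other arms of the unfolded protein response, and 1 for immediate early genes. Total-count size factors gave 1 call for amino acid supply, 1 for stress effectors and 5 for immediate early genes. That scaling moved the median log2 fold change of all genes from 0.01 to 0.26, and the share of calls higher in IDPN from 2.32% to 3.64%, with lower calls going from 3.42% to 1.28%. The low-count filter gave 1 call for stress effectors, and switching off independent filtering gave 0 for the unfolded protein response. With the Cook's distance filter off there were 3 calls for bZIP partners and 5 for immediate early genes.

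Leaving out 1 library gave 0 to 4 calls for ISR signalling, 0 to 1 for amino acid supply, 0 to 2 for stress effectors, 0 to 5 for bZIP partners, 1 to 11 for immediate early genes, 0 to 1 for the unfolded protein response and 0 to 1 for heat shock. The 4 calls came without Control 3, and the 5 and the 11 without IDPN 1. Without IDPN 3 there were 8 calls for immediate early genes. In the fits without IDPN 1 or IDPN 3, DESeq2 does not apply its Cook's distance filter to IDPN 2. Genes that this filter removed with all libraries could therefore be called there. In these lists, calls were higher in IDPN except 1 lower for amino acid supply (without Control 3 or IDPN 2), 1 of the 2 for stress effectors (without Control 3, and with independent filtering off), and 1 for heat shock without Control 1, where the call without Control 3 was higher. The causes were not tested.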
